A study of Mus musculus with 9 samples.

Results

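The synaptic vesicle and adhesion genes are 34 genes whose products release transmitter from nerve terminals or hold and organise the 2 sides of the synapse. They were taken by symbol from a table of 55385 annotated features measured in mouse brain tissue, and 22 of them are classed here as presynaptic and 12 as postsynaptic. Each symbol had exactly 1 row, and all 34 passed the filter on low values, which asked for 0.5 or more FPKM (fragments per kilobase, scaled to library size) in 3 or more of the 9 libraries. RNA came from the ischemic hemisphere of male C57BL/6 mice aged 8 to 10 weeks, with 3 libraries in each of 3 groups. In the celastrol group and in the tMCAO (transient middle cerebral artery occlusion) group, a coated filament closed the middle cerebral artery for 90 min and was then withdrawn to let blood return. The celastrol mice also received 4.5 mg/kg of celastrol, a plant triterpenoid, into the peritoneum when reperfusion began, and the sham mice had the neck surgery with the artery never closed. Neither when after reperfusion the tissue was taken nor how many animals went into a library is given in the sources used here. The p-values therefore weigh differences against library-to-library spread, which may be technical in part.

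A synaptic vesicle carries synaptophysin, SV2 and synaptotagmin proteins in its membrane and is tethered by synapsins. It fuses where the SNARE proteins syntaxin, SNAP25 and VAMP zip together, a step clamped by complexins and triggered when calcium binds synaptotagmin, at release sites built by Bassoon, Piccolo, RIM and Munc13. Presynaptic neurexins reach across the cleft to neuroligins, behind which the DLG scaffolds, their DLGAP partners and the calcium-dependent kinase CaMKII form the postsynaptic density, and loss of synapses is a hallmark of tissue starved of blood.

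The libraries held 60392960 to 75158625 estimated counts, and the 34 genes took 1.54% to 2.23% of them. Of 20 general neuron markers all 20 were tested and none was at 0. Whether counting used strand is not given, and 7 members share their locus with an opposite-strand gene that has at least 1% of their count. In Syn3 the nested gene Timp3 had 764% of Syn3's mean count and in Syt2 the partner Ppp1r12b had 182%, so both levels are uncertain. In bulk tissue, fewer cells of a type and less RNA per cell cannot be told apart.

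For 26 of the 34 genes the RefSeq table of the GRCm38.p6 assembly holds a start site. The bases before it are shown for the 4 active zone genes, which lay lower together in tMCAO libraries, for Stx1a and Dlgap3, the SNARE and scaffold genes with the smallest p-values there, and for Syn1, a textbook neuronal promoter. Each line runs 5′ to 3′ on the gene's own strand and ends at the base before the RefSeq start, except that of Syn1, which stops 101 bases before it because annotated Syn1 exon follows. The RefSeq start of Dlgap3 lies inside the gene as the deposited table bounds it. Capitals mark matches, on either strand, to the motifs named after the lines.
Unc13a, chr8:71671758-71672007, minus strand: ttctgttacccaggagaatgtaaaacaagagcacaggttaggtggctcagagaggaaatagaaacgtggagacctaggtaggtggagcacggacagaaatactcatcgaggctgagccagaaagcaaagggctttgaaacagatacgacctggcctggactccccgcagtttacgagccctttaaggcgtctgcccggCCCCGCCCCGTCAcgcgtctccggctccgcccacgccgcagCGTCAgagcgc
Bsn, chr9:108190384-108190633, minus strand: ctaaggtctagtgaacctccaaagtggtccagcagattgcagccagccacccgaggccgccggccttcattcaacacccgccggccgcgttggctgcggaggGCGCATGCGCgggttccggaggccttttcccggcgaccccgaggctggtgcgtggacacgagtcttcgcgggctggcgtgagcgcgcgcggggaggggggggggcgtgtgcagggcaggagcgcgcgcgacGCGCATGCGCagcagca
Rims1, chr1:22806159-22806408, minus strand: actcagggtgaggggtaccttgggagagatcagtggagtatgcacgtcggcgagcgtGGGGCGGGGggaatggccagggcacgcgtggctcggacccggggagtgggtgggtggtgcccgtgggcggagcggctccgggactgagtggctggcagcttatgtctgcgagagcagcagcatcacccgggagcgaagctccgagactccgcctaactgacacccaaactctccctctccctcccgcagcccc
Pclo, chr5:14514668-14514917, plus strand: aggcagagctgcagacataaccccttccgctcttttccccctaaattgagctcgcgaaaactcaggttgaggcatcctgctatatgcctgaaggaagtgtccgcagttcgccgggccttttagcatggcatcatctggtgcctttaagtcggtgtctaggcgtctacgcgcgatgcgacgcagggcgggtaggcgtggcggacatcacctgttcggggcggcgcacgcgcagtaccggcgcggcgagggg
Stx1a, chr5:135023232-135023481, plus strand: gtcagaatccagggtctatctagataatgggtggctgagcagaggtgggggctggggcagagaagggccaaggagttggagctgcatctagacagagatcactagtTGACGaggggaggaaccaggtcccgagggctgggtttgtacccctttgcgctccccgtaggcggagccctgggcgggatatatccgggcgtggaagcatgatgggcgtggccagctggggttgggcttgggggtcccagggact
Dlgap3, chr4:127172630-127172879, plus strand: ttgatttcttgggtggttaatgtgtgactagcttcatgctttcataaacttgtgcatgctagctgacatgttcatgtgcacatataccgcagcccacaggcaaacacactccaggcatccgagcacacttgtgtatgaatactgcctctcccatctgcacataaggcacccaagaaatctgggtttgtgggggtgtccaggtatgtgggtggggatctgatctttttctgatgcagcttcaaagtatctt
Syn1, chrX:20921019-20921168, minus strand: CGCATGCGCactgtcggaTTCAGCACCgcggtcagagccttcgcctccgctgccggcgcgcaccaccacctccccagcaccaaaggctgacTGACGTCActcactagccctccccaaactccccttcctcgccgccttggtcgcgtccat

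The 8 motifs searched in the 250 bases before each start were the left arm TTCAGCACC and the right arm GGACAGCGC of RE1 (the element of the neuronal repressor REST), the cyclic AMP response element TGACGTCA and its core TGACG, which overlaps it, the NRF1 element GCGCATGCG, the EGR1 element GCGGGGGCG, the SP1 element GGGGCGGGG and the TATA element TATAAA. Syn1 held the left RE1 arm 232 to 224 bases and the full cyclic AMP element 159 to 152 bases before its start. Nlgn1, the only other matched gene with the left RE1 arm, had it 153 to 145 bases before a start. Of all 27025 genes in the table, 0.348% held the left RE1 arm and 1.77% the cyclic AMP element, and of the 11366 tested genes in it 0.396% and 2.97%. Bsn held the NRF1 element in 2 places, 148 to 139 and 17 to 8 bases before its start, each a pair of overlapping matches on opposite strands. Syn1 held it once, 250 to 242 bases before its start, and 1.64% of all genes and 3.17% of those tested held it. Unc13a and Rims1 each held an SP1 element, as did Nlgn2, Sv2a and Syp, a motif found in 11.8% of all genes and in 21.9% of the genes tested. The core TGACG stood in Unc13a and Stx1a as well as Dlg3, Dlg4, Syn1 and Syt2, in 6 of 26 members, against 19.8% of all genes and 29.9% of those tested. The EGR1 element was found in Syn2 (2.93% of all genes and 5.73% of those tested), the TATA element in Dlg2 and Sv2b (14.3% and 8.15%) and the right RE1 arm in no member (0.363% and 0.651%). None of these letters stood in the lines of Pclo and Dlgap3.

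Levels per length were compared as FPKM averaged over the 9 libraries. The presynaptic genes ranged from 1.27 FPKM for Syn3 to 336 FPKM for Snap25 with a median of 40.5 FPKM, and the postsynaptic genes from 3.69 FPKM for Nlgn1 to 244 FPKM for Camk2a with a median of 23.8 FPKM. Within families 1 gene usually led. Syn1 (148 FPKM) stood above Syn2 (67.3 FPKM) and Syn3 in 9 of 9 libraries. Vamp2 (231 FPKM), the vesicle SNARE of most forebrain synapses, was 5.27 to 28.7 times as high as Vamp1. Dlg4 (39.6 FPKM), which encodes PSD-95, stood above Dlg3 (31.9 FPKM) and Dlg2 (17.7 FPKM) in 9 of 9 libraries. The same held for Cplx1 over Cplx2, Bsn over Pclo, Nrxn2 over Nrxn3 and Camk2a over Camk2b. Dlgap3, Dlgap1 and Dlgap4 were close together at 26.1, 21.6 and 20.8 FPKM, and the order of the 4 Dlgap genes by their means was found in 3 of 9 libraries. Sv2a (104 FPKM) stood above Sv2b (78.7 FPKM) in 8 of 9 libraries and Syt7 (17.1 FPKM) above Syt2 (9.98 FPKM) in 7 of 9.

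After occlusion without drug most of the 34 genes lay below sham, none of them past the threshold. In tMCAO against sham, 29 of 34 had a log2 fold change below 0, where 49.1% of all 16982 features tested did. The median log2 fold change was −0.35 over the members and 0.01 over all features. No member passed an adjusted p of 0.05 in edgeR's quasi-likelihood test, and neither did any other feature (0% lower and 0% higher). At an unadjusted p under 0.05, 12 members were lower and 0 higher, against 6.36% of all features lower and 8.56% higher. In 17 of 34 members every tMCAO library lay below every sham library, and in 0 members above, where 11.1% and 12.4% of all features did so. DESeq2 called 3 members lower, Unc13a, Stx1a and Dlgap3, when 1.64% of all features were called lower by it. The count of 12 at unadjusted p depended on single libraries: it was 4 without sham library 2, without sham library 3 or without tMCAO library 2, 5 without tMCAO library 1, 8 without tMCAO library 3 and 16 without celastrol library 2, which shares in the estimate of the spread. The count over all 16982 features, lower and higher together, moved as well, from 2534 with all libraries. It was 1589 without sham library 2, 1651 without sham library 3 and 2359 without tMCAO library 2. Without tMCAO library 1 it was 1587, without tMCAO library 3 2497 and without celastrol library 2 2782.

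Some marker lists of neurons and of other cells differed between the same groups, and others hardly did. The summed level of the 20 general neuron markers was 5226 to 5830 CPM (counts scaled to library size) in tMCAO libraries and 6402 to 6715 CPM in sham libraries, and 17 of 20 had a log2 fold change below 0, with a median of −0.27. The 10 reactive astrocyte markers summed to 1220 to 2451 CPM in tMCAO libraries and 179 to 356 CPM in sham libraries, none of them at 0. Each of the 10 was higher in all tMCAO libraries than in any sham library. The 8 tested of 10 myeloid markers, none at 0, summed to 110.2 to 495 CPM in tMCAO libraries and 23.6 to 50.1 CPM in sham libraries, and all 8 were above 0 with a median log2 fold change of 3.26. Neuron lists of single regions, 10 genes each with none at 0, differed in direction. Of the excitatory cortex markers 9 of 10 lay below 0 (median −0.53), with sums of 1181 to 1569.6 CPM in tMCAO libraries and 1456 to 2452 CPM in sham libraries. Of the striatal markers 9 of 10 lay below 0 (median −0.75), with sums of 277 to 911 CPM in tMCAO libraries and 243 to 1594 CPM in sham libraries. Of the thalamic markers 9 of 10 lay above 0 (median 0.63), with sums of 183 to 949.7 CPM in tMCAO libraries and 115 to 440.0 CPM in sham libraries. Medians were near 0 over the astrocyte (−0.05, 6 of 10 below 0) and oligodendrocyte markers (−0.02, 5 of 10). They were −0.11 over both the inhibitory (7 of 10 below 0) and the microglia markers (5 of 10). Endothelium markers had a median of 0.28, with 7 of 10 above 0. Of 9 tested hippocampus markers 6 lay above 0 (median 0.57), as did all 8 tested choroid plexus markers (median 1.16). The part of such shifts in the synaptic genes' levels was not tested.

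**Figure D1:**
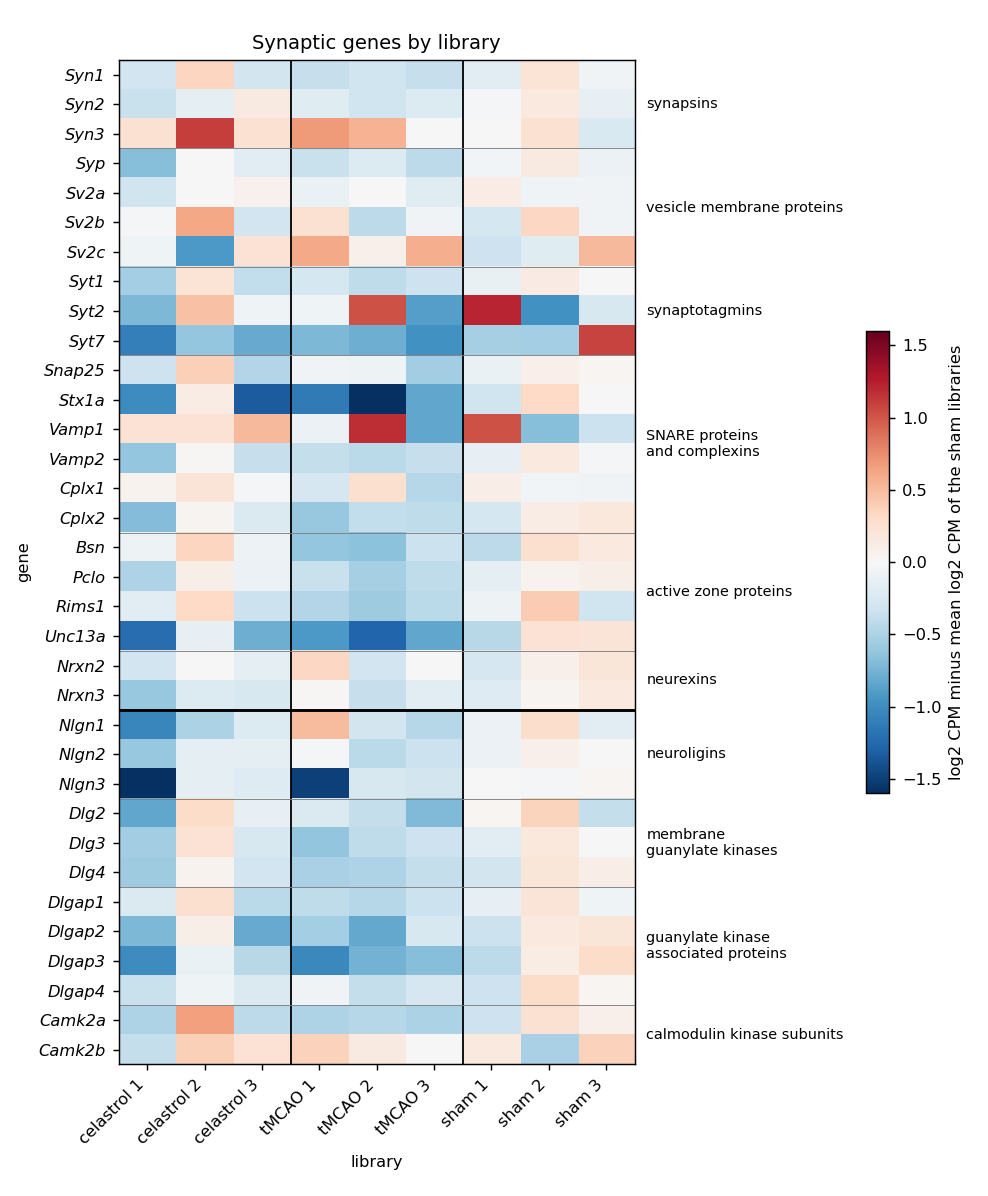
Each row is 1 of the 34 genes, grouped by role with presynaptic genes above the thick line, and each column 1 library (celastrol, tMCAO, sham). Colour is log2 CPM minus the mean log2 CPM of the 3 sham libraries, with blue lower. The tMCAO columns are mostly blue, celastrol library 2 is mostly pale or red, and Syt2 and Vamp1 are red in tMCAO library 2 and sham library 1.

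The 4 active zone genes all lay below sham, each with an unadjusted p under 0.05 in edgeR, and their median log2 fold change was −0.54. Over all features 49.1% lay below 0 and 6.36% were lower by that rule. Among all 34 members the count by that rule fell from 12 to 4 without sham library 2 or 3. Over all features, lower and higher together, it fell from 2534 to 1589 and 1651 in those fits. Unc13a (ENSMUSG00000034799, chr8:71624417-71671757, minus strand) encodes Munc13-1, which primes vesicles for fusion. It had 229, 181 and 244 CPM in the tMCAO libraries, against 319.8, 511 and 502 CPM in the sham libraries. The groups did not overlap, and the log2 fold change was −1.03 ± 0.29 (SE, n = 3 each) with an adjusted p of 0.190, the smallest of the 34. DESeq2 gave an adjusted p of 0.0218, and with each library left out in turn the edgeR fold change stayed between −1.21 and −0.90 with adjusted p from 0.0927 to 0.499. The opposite-strand gene Colgalt1 had 19.2% of Unc13a's count and a log2 fold change of −0.04 ± 0.15.

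Pclo (chr5:14514918-14863459, plus strand) encodes the giant scaffold Piccolo. It had 212, 187 and 205 CPM in tMCAO libraries, against 243, 283 and 291 CPM in sham libraries. All tMCAO values lay below all sham values, with a log2 fold change of −0.44 ± 0.15 and an adjusted p of 0.256. Bsn (chr9:108096022-108190384, minus strand), which encodes the related scaffold Bassoon, had 321, 313 and 388 CPM in tMCAO libraries, against 369.7, 592 and 550.0 CPM in sham libraries. Here sham library 1 reached below the highest tMCAO library, and the log2 fold change was −0.57 ± 0.20 with an adjusted p of 0.258. Rims1, whose product RIM1 ties vesicles to calcium channels, had 170.2, 158 and 175 CPM in tMCAO libraries, against 222.5, 311 and 188 CPM in sham libraries. Its groups did not overlap, and the log2 fold change of −0.52 ± 0.21 (adjusted p = 0.317) came to −0.29 without sham library 2.

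**Figure D2:**
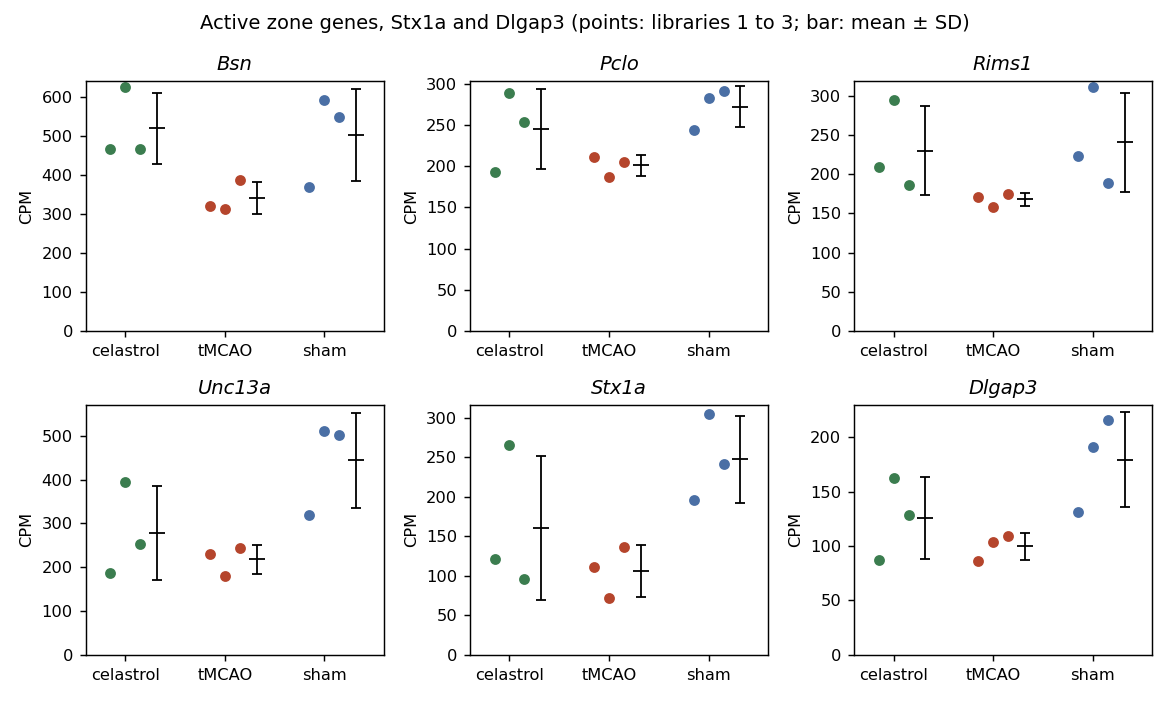
CPM of the 4 active zone genes, Stx1a and Dlgap3 in each library (points, libraries 1 to 3 from left to right in each group) with the mean ± SD (n = 3) beside them; the axes start at 0. The tMCAO points lie below all sham points in each panel except that of Bsn, and celastrol library 2 is the highest celastrol point in all 6 panels.

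Among genes of the fusion machinery, Stx1a stood furthest from sham and Vamp1 and Cplx1 close to it. Stx1a (ENSMUSG00000007207, chr5:135023482-135051100, plus strand) encodes syntaxin-1A of the plasma membrane. It had 112, 71.7 and 137 CPM in tMCAO libraries, against 196, 305 and 242 CPM in sham libraries. This was the largest difference among the 34 genes, without overlap, at a log2 fold change of −1.21 ± 0.39 and an adjusted p of 0.228 (0.0422 in DESeq2). Vamp2 had 893, 863 and 905 CPM in tMCAO libraries, against 1062, 1299 and 1148 CPM in sham libraries. The tMCAO libraries were tightly grouped and all lower, at −0.40 ± 0.16 with an adjusted p of 0.316. Cplx2 averaged 822 ± 65.8 CPM in tMCAO libraries and 1144 ± 186 CPM in sham libraries (SD, n = 3 each), a log2 fold change of −0.48 ± 0.20 with an adjusted p of 0.316. The remaining genes of the group were closer to sham. Cplx1 differed by −0.13 ± 0.18, Snap25 by −0.21 ± 0.24 and Vamp1 by 0.13 ± 0.55 on the log2 scale, and in each of them the groups overlapped. Cplx1 came to −0.36 without tMCAO library 2 and 0.01 without tMCAO library 3, and Snap25 to −0.07 without tMCAO library 3. Vamp1 came to −0.61 without tMCAO library 2 and 0.83 without sham library 1.

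Of the 10 synapsin, vesicle membrane and synaptotagmin genes, 1 had an unadjusted p under 0.05 in tMCAO against sham, namely Syt7, described below. Over all features 6.36% were lower by that rule. Syn1 averaged 476 ± 9.08 CPM in tMCAO libraries and 612 ± 85.9 CPM in sham libraries, without overlap, at a log2 fold change of −0.36 ± 0.19. Syn2, Syp and Syt1 likewise had non-overlapping lower groups, at −0.25 ± 0.14, −0.33 ± 0.17 and −0.34 ± 0.19, and their adjusted p-values ran from 0.408 to 0.449. Syn2 came to −0.16 without sham library 2. Sv2a, which binds the drug levetiracetam, had the smallest spread of all members over the 9 libraries, an SD of 0.135 in log2 CPM. It had 457, 576 and 599 CPM in celastrol libraries, 532, 566 and 499 CPM in tMCAO libraries, and 623, 545 and 549 CPM in sham libraries. All 3 groups overlapped, and tMCAO against sham came to −0.10 ± 0.13, and to −0.04 without sham library 1. Sv2b differed by −0.07 ± 0.27, with the sign turned to 0.11 without sham library 2. Of the 5 members above 0, Syn3 had the largest value at 0.43 ± 0.28 and Sv2c the next at 0.39 ± 0.32, both with overlapping groups. Sv2c ran from 0.23 without sham library 1 to 0.70 without sham library 3.

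Syt7 encodes a slow, high-affinity calcium sensor. It had 117, 111 and 97.6 CPM in tMCAO libraries, against 132, 131 and 406 CPM in sham libraries. The groups did not overlap and the log2 fold change was −1.04 ± 0.40 (adjusted p = 0.301), yet it came to −0.28 without sham library 3. The 10 striatal markers summed to 1594 CPM in that library, against 243 and 546 CPM in the other sham libraries, and their part in Syt7's level was not tested.

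Of the 5 neurexin and neuroligin genes, 4 had overlapping tMCAO and sham groups. Over all features 11.1% were lower without overlap and 12.4% higher. Nrxn2 differed by 0.02 ± 0.18 and Nrxn3 by −0.18 ± 0.15 in tMCAO against sham. Per length, Nrxn2 stood above Nrxn3 by a log2 ratio of 0.50 in celastrol libraries, 0.48 in tMCAO libraries and 0.29 in sham libraries. Both occluded groups lay above all sham libraries, as a description with no test. This pair was picked from many pairs of paralogs, most of which overlapped with sham in both occluded groups. Nlgn1, found at excitatory synapses, differed by −0.03 ± 0.29. Nlgn2, found at inhibitory synapses, differed by −0.26 ± 0.15. Single libraries moved the small values: without tMCAO library 1, Nrxn2 came to −0.16, Nrxn3 to −0.28 and Nlgn1 to −0.38. Nlgn3 was lower without overlap at −0.58 ± 0.42, and this rested on few libraries, as its values by library show further on.

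All 7 DLG and DLGAP genes had a log2 fold change below 0, where 49.1% of all features did. In 4 of them the tMCAO group lay below sham without overlap, where 11.1% of all features did so. Dlgap3 (ENSMUSG00000042388, chr4:127169204-127237022, plus strand) encodes SAPAP3, best known from striatal synapses. It had 85.9, 104 and 109 CPM in tMCAO libraries, against 131, 191 and 216 CPM in sham libraries. The groups did not overlap, and the log2 fold change was −0.85 ± 0.25 with an adjusted p of 0.204, and 0.0379 in DESeq2. Dlg4 had 486, 495 and 534 CPM in tMCAO libraries, against 569.6, 796 and 749.9 CPM in sham libraries. Its groups did not overlap, at −0.48 ± 0.18 with an adjusted p of 0.280. Dlg3, which encodes SAP102, had 156, 182 and 193 CPM in tMCAO libraries, against 215, 273 and 242 CPM in sham libraries. It too was lower in every tMCAO library, at −0.46 ± 0.20 with an adjusted p of 0.324.

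Dlgap1 had 369, 358 and 386 CPM in tMCAO libraries, against 446, 564 and 468 CPM in sham libraries. The difference of −0.41 ± 0.18 (adjusted p = 0.327) came without overlap. Dlgap2 had 53.7, 44.0 and 65.4 CPM in tMCAO libraries, against 61.2, 86.9 and 89.1 CPM in sham libraries. Sham library 1 fell within the tMCAO range, and the difference was −0.54 ± 0.27 with an adjusted p of 0.389. Dlg2 differed by −0.46 ± 0.29 with overlap, and by −0.27 without sham library 2. Dlgap4, among the steadiest members, had 171, 209 and 187 CPM in celastrol libraries, 211, 169 and 182 CPM in tMCAO libraries, and 175, 269 and 224 CPM in sham libraries, and tMCAO against sham came to −0.25 ± 0.17 with overlapping groups, and to −0.09 without sham library 2.

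Neither of the 2 CaMKII subunit genes passed the threshold. Camk2a, the forebrain subunit, had 1618, 1669 and 1601 CPM in tMCAO libraries, against 1815, 2706 and 2422 CPM in sham libraries. The groups did not overlap, at −0.51 ± 0.30 with an adjusted p of 0.459. Camk2b averaged 721 ± 93.4 CPM in tMCAO libraries and 659.7 ± 195 CPM in sham libraries, a difference of 0.13 ± 0.26 with overlap that came to −0.09 without sham library 2. Per length, the log2 ratio of Camk2a to Camk2b was 1.27 to 1.62 in tMCAO libraries and 1.64 to 2.90 in sham libraries. The groups were thus close to meeting.

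**Figure D3:**
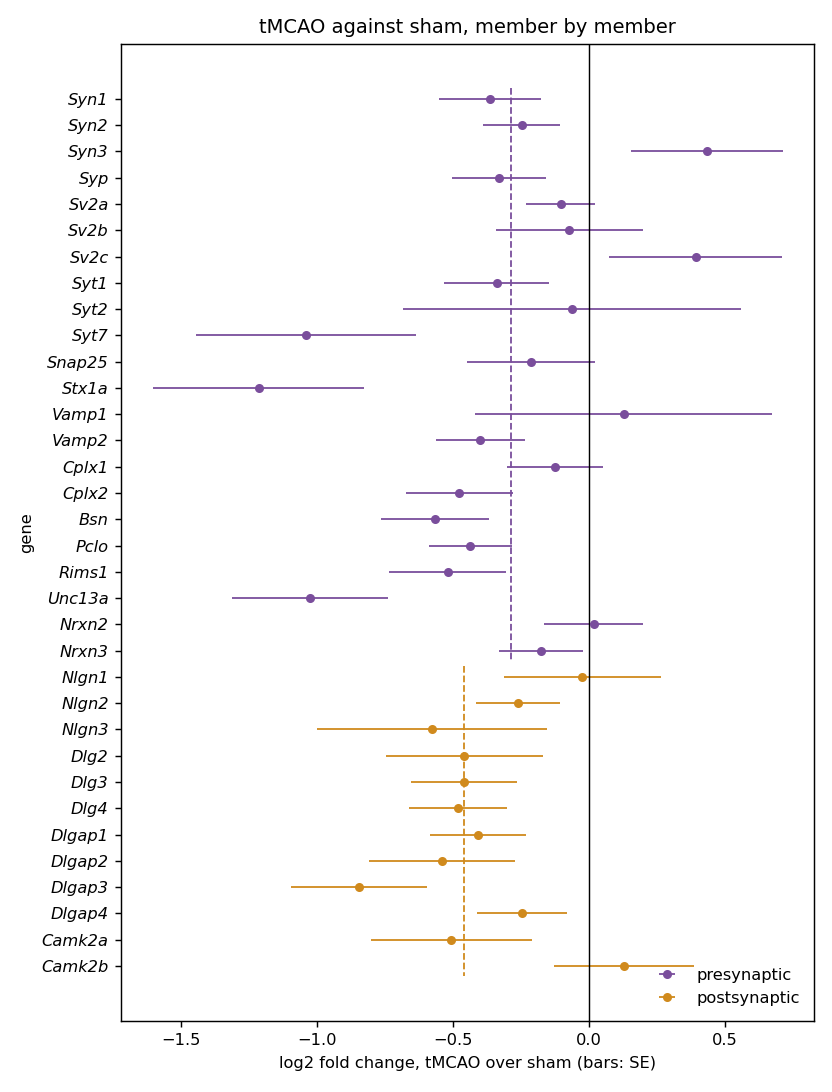
Log2 fold change of tMCAO over sham for each gene (points) with its SE (bars), 22 presynaptic genes above and 12 postsynaptic genes below; dashed lines are the class medians of −0.29 and −0.46. Stx1a, Syt7 and Unc13a are the points below −1, and 5 points lie above 0.

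Presynaptic and postsynaptic genes were then set side by side. In tMCAO against sham the median log2 fold change was −0.29 over the 22 presynaptic genes and −0.46 over the 12 postsynaptic genes, with 18 of 22 and 11 of 12 below 0. Of the presynaptic genes 8 had an unadjusted p under 0.05, and of the postsynaptic genes 4, all lower, against 6.36% of all features. All tMCAO libraries lay below all sham libraries in 11 presynaptic and 6 postsynaptic genes, against 11.1% of all features. As a level, the mean log2 CPM of presynaptic genes exceeded that of postsynaptic genes by 0.55 ± 0.15 in celastrol libraries, 0.52 ± 0.09 in tMCAO libraries and 0.42 ± 0.11 in sham libraries (SD, n = 3 each). These ranges overlapped between groups, so no shift in the balance between the classes exceeded the spread between libraries. The ratio of summed FPKM, which weights abundant genes, ran from 3.35 to 4.28 in celastrol libraries, 3.90 to 4.38 in tMCAO libraries and 3.66 to 4.28 in sham libraries.

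**Figure D4:**
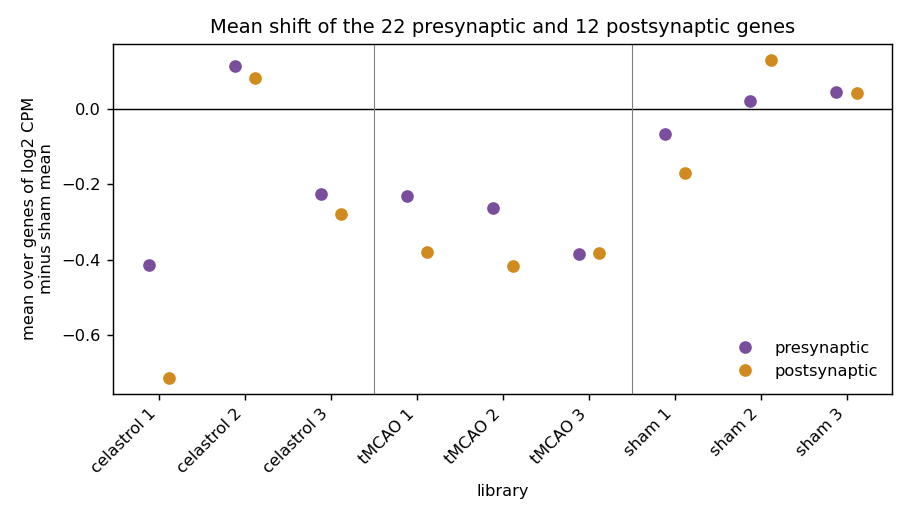
Mean over the 22 presynaptic and over the 12 postsynaptic genes of log2 CPM minus the sham mean, in each library (celastrol, tMCAO, sham from left to right). Both classes lie below 0 in the 3 tMCAO libraries, at −0.23 to −0.39 and −0.38 to −0.42, and celastrol library 2 is above 0 for both while celastrol library 1 is the lowest of all.

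With celastrol most members lay a little above tMCAO, and 1 library set much of this. In celastrol against tMCAO, 8 of 34 genes had a log2 fold change below 0, against 50.7% of all features, and the medians were 0.14 over presynaptic and 0.16 over postsynaptic genes. No member was called, nor any other feature (0% lower and 0% higher) in edgeR's quasi-likelihood test, and 698 of 16982 features had an unadjusted p under 0.05. DESeq2 called 0 members and 18 of 16982 features, 7 of them lower (0.0412% of all features). The 1 member with an unadjusted p under 0.05 (5 without celastrol library 1 or 3, 2 without sham library 2 or tMCAO library 2 or 3, 0 without celastrol library 2) was Bsn, where 2.25% of all features were higher by that rule and 1.86% lower. Over all features the count of 698 was 1097 without celastrol library 1, 1033 without celastrol library 3 and 551 without celastrol library 2. It was 595 without sham library 2, 954 without tMCAO library 2 and 894 without tMCAO library 3. Groups did not overlap, celastrol higher, in 3 members, Bsn, Rims1 and Syn1, against 3.73% of all features, and celastrol lower in 0, against 4.13%. Celastrol library 2 was the highest of its group in 28 of 34 members, against 35.2% of all features, and without it 19 of 34 genes lay below 0 and the medians came to −0.05 and −0.04. Its summed reactive astrocyte markers were 658 CPM, against 2083 and 1628 CPM in celastrol libraries 1 and 3, and what set this library apart was not tested.

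Bsn had 467.4, 625 and 467 CPM in celastrol libraries, against 321, 313 and 388 CPM in tMCAO libraries. Every celastrol library was above every tMCAO library, at a log2 fold change of 0.61 ± 0.20 with an adjusted p of 0.976, and of 0.46 without celastrol library 2. Rims1 had 209, 294 and 186 CPM in celastrol libraries, against 170.2, 158 and 175 CPM in tMCAO libraries. It was higher without overlap, at 0.45 ± 0.21, and 0.24 without celastrol library 2. Pclo had 193, 289 and 253 CPM in celastrol libraries, against 212, 187 and 205 CPM in tMCAO libraries. Its groups overlapped, at 0.28 ± 0.15, and 0.15 without celastrol library 2. Unc13a, the fourth active zone gene, had 186, 396 and 254 CPM in celastrol libraries, a difference from tMCAO of 0.35 ± 0.28 that came to 0.01 without celastrol library 2.

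Differences in Sv2c and Nlgn1 ran the other way. Sv2c, whose product is found mainly in basal ganglia, had 80.4, 44.8 and 99.2 CPM in celastrol libraries, against 128, 89.2 and 126 CPM in tMCAO libraries. The ranges overlapped, at −0.62 ± 0.32 with an adjusted p of 0.976, and −0.35 without celastrol library 2. The 10 striatal markers, all below 0 with a median of −1.16, summed to 189.6 to 421 CPM in celastrol libraries and 277 to 911 CPM in tMCAO libraries, and their part was not tested. Nlgn1 had 30.5, 44.4 and 53.9 CPM in celastrol libraries, against 89.8, 51.4 and 46.1 CPM in tMCAO libraries. This difference of −0.54 ± 0.29, with overlap, came to −0.18 without tMCAO library 1. Dlgap1 had 418, 587 and 364.5 CPM in celastrol libraries, against 369, 358 and 386 CPM in tMCAO libraries, at 0.30 ± 0.18 and 0.08 without celastrol library 2.

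Celastrol libraries were also compared with the sham libraries that served tMCAO, so the 2 comparisons share their controls. Of the 34 genes 28 lay below 0, against 49.6% of all features, with medians of −0.15 over presynaptic and −0.25 over postsynaptic genes. None was called by edgeR's quasi-likelihood test (0% of all features lower and 0.00589% higher). DESeq2 called no member either, and 380 of 16982 features, 66 of them lower (0.389% of all features). An unadjusted p under 0.05 was found in 3 members, Syt7, Unc13a and Nrxn3, all lower, as in 2.81% of all features (5.69% were higher). This count was 16 without celastrol library 2, 5 without sham library 1, 1 without celastrol library 1, sham library 2 or tMCAO library 3, and 0 without sham library 3. Over all features, lower and higher together, it was 1445 with all libraries, 2119 without celastrol library 2 and 1636 without sham library 1. It came to 837 without celastrol library 1, 967 without sham library 2, 1478 without tMCAO library 3 and 979 without sham library 3. All celastrol libraries lay below all sham libraries in 5 members, Syt7, Nrxn3 and the 3 neuroligins, against 5.54% of all features, and above them in Syn3, against 7.89%. Taking both occluded groups together against sham, 29 of 34 lay below 0, against 49.7% of all features. No member was called by edgeR (0.00589% of all features lower and 0.00589% higher), while DESeq2 called Unc13a, where 1.18% of all features were lower. An unadjusted p under 0.05 was found in 6 members, all lower, against 5.39% of all features (8% were higher). This count was 17 without celastrol library 2, 12 without sham library 1, 3 without sham library 2 and 2 without sham library 3. Over all features, lower and higher together, it was 2274 with all libraries, 2937 without celastrol library 2 and 2330 without sham library 1. It came to 1401 without sham library 2 and 1400 without sham library 3. All occluded libraries lay below all sham libraries in Syt7 and Nlgn3, 2 members, against 2.53% of all features, and above them in 0, against 4.2%.

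Spread over the 9 libraries, which includes any difference between groups, was largest in Syt2, Stx1a, Vamp1 and Nlgn3. Syt2, the calcium sensor of fast synapses, had the largest spread, an SD of 0.79 in log2 CPM over the 9 libraries. It had 46.5, 106 and 73.4 CPM in celastrol libraries, 73.5, 156 and 41.8 CPM in tMCAO libraries, and 179, 39.3 and 64.4 CPM in sham libraries. Vamp1 had 226, 226 and 278 CPM in celastrol libraries, 181, 437 and 109 CPM in tMCAO libraries, and 393, 121 and 152 CPM in sham libraries. Both were highest in tMCAO library 2 and sham library 1, so their groups overlapped. The 10 thalamic markers, all tested and none at 0, summed to 207, 212 and 602 CPM in celastrol libraries, 229.7, 949.7 and 183 CPM in tMCAO libraries, and 440.0, 115 and 198 CPM in sham libraries, and were thus highest in 3 libraries that include those 2; their part was not tested. Nlgn3 had 37.6, 113 and 109.6 CPM in celastrol libraries, 44.9, 106 and 103 CPM in tMCAO libraries, and 125, 124 and 129 CPM in sham libraries. It was low in library 1 of both occluded groups and even elsewhere, and tMCAO against sham came to −0.27 without tMCAO library 1. Stx1a was the remaining gene of large spread, with 121, 265 and 96.5 CPM in celastrol libraries beside the tMCAO and sham values above. At the other end, Syn2 had 454, 521 and 641 CPM in celastrol libraries, 509, 466 and 499 CPM in tMCAO libraries, and 567, 649 and 533 CPM in sham libraries.

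**Figure D5:**
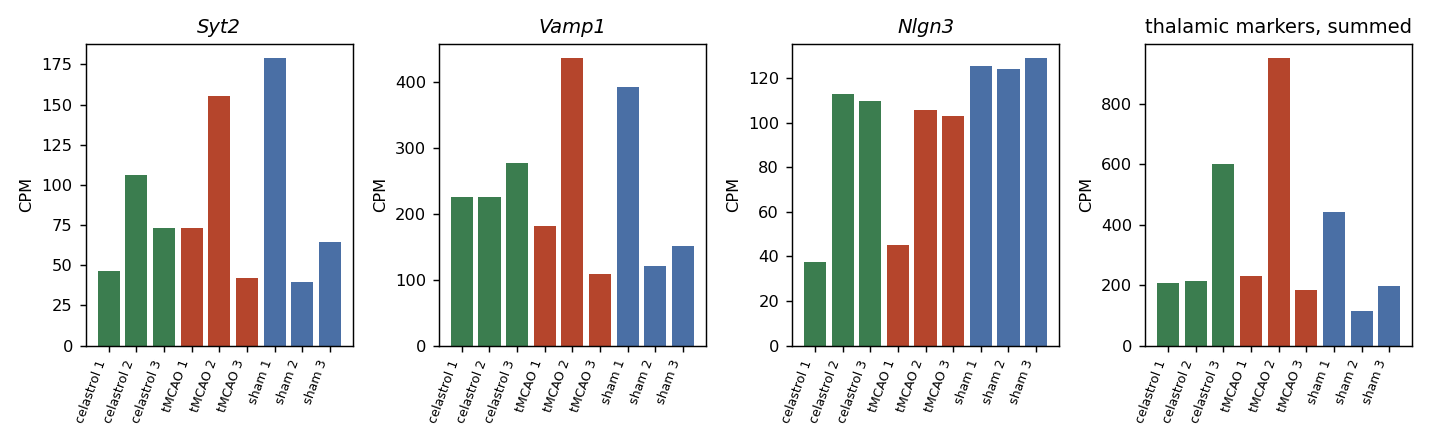
CPM of Syt2, Vamp1 and Nlgn3 and the summed CPM of 10 thalamic markers in each library (bars from 0; celastrol, tMCAO, sham from left to right). Syt2 and Vamp1 peak in tMCAO library 2 and sham library 1, and Nlgn3 is low in celastrol library 1 and tMCAO library 1.

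The celastrol libraries differed most among themselves. The median SD of log2 CPM within a group was 0.35 over presynaptic and 0.41 over postsynaptic genes in celastrol libraries, where all features had 0.25. It was 0.18 for both classes in tMCAO libraries (all features 0.25), and 0.24 and 0.28 in sham libraries (all features 0.20). Celastrol library 1 was the lowest of the 9 libraries in 13 members, against 11.8% of all features, and tMCAO library 2 in 10, against 8.59%. Celastrol library 2 and sham library 2 were each the highest in 10 members, against 12.6% and 11.2% of all features.

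Lists of other synaptic genes gave a like picture in tMCAO against sham, again with no feature called by edgeR. They come from the same libraries and were chosen with earlier results known, so they are no independent support. The genes named are among the 3 of smallest unadjusted p in each list in this comparison. Of 40 further vesicle and release genes 33 lay below 0 with a median of −0.26, and 8 were lower at an unadjusted p under 0.05. Over all features 49.1% lay below 0 and 6.36% were lower by that rule. Rph3a, whose product rabphilin binds Rab3 on vesicles, had 326, 319 and 244 CPM in tMCAO libraries, against 431, 666 and 553 CPM in sham libraries, at −0.89 ± 0.19 with an adjusted p of 0.125. Unc13b and Rims2, paralogs of 2 active zone members, differed by −0.54 ± 0.17 and −0.40 ± 0.14. Of 40 further adhesion genes 37 lay below 0 with a median of −0.35, and 13 were lower at an unadjusted p under 0.05. Lrrtm3 and Clstn3, postsynaptic partners of neurexins, differed by −0.74 ± 0.19 and −0.47 ± 0.15, and Igsf21 by −0.77 ± 0.22. Of 28 further postsynaptic density genes 25 lay below 0 with a median of −0.37, and 7 were lower by that rule. The scaffold gene Lrrc7 differed by −0.67 ± 0.22 and the spine gene Synpo by −1.37 ± 0.48. DESeq2 called 3 of these 108 genes, Igsf21, Lrrtm3 and Rph3a, all lower, against 1.64% of all features.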

How the data were processed

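The authors deposited estimated counts (whole numbers) and FPKM values side by side for every gene. The submitters' processing notes list StringTie 1.3.4d, HISAT2 2.0.4 and cutadapt 1.9, besides edgeR, DESeq2 and mm10, and their settings were not given in those notes. Per the labels' protocols, 5 µg of RNA was depleted of ribosomal RNA and read as 2 × 150 bp. Here all 9 libraries entered 1 edgeR 4.0.16 quasi-likelihood fit (R 4.3.3, TMM scaling, no covariates) over 16982 features that reached 0.5 FPKM in 3 or more libraries. P-values are two-sided and Benjamini-Hochberg adjusted over all features, with a threshold of 0.05. The SE is the fold change over the square root of F. DESeq2 1.42.0 and limma 3.58.1 on log2(FPKM + 0.5) were alternatives, and the code was tested on simulated data. Those data varied less between libraries than the real ones, so that test does not show what changes could be found here. Members and lists were chosen with earlier results of these data known. Values in every library are given for the 6 presynaptic and 6 postsynaptic members of smallest p in tMCAO against sham, the 6 in celastrol against tMCAO, and the 4 of largest and 3 of smallest spread, and the 3 leading genes of each other list are named, except 1 that is not reported here. Promoter windows are from RefSeq, GRCm38.p6. The NRF1 and right RE1 motifs were searched in a longer form first and then as the 9 letters given.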

Additional observations from a re-analysis of the deposited data

How the results depend on the processing

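The count of member genes called stayed at 0 in each comparison under RLE scaling, the newer quasi-likelihood form, both other filters, limma on FPKM, summed rows and each leave-one-out fit, and under fits on only the groups compared in the 3 comparisons of single groups. DESeq2 called 3 members in tMCAO against sham (Unc13a, Stx1a and Dlgap3, adjusted p 0.0218 to 0.0422) and 1 with both occluded groups against sham. Of the other synaptic genes it called 3, 2 and 3, all lower, in tMCAO, celastrol and both occluded groups against sham. Over all features it called 1.64%, 0.389% and 1.18% lower in those comparisons. The cause of the difference from edgeR was not tested. Whether the replicate numbers pair the libraries is not settled by the correlations of same-numbered libraries, which ran from −0.16 to 0.20. With the replicate block 0 members and 51 of all features were called in tMCAO against sham, and 0 members in each of the other comparisons (22 and 64 of all features in celastrol and in both occluded groups against sham, where 1 and 2 were called without it). Members below 0 in tMCAO against sham numbered 26 to 30 over 19 alternatives, and 5 to 19 in celastrol against tMCAO. By the ratio of summed FPKM, the presynaptic minus postsynaptic level in celastrol against sham was −0.021 on the log2 scale, where the mean log2 CPM gave 0.13. At 60392960 or more estimated counts per library the spread between libraries, not counting, limits these values.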
